A study of Mus musculus with 12 samples.

Results

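Fhdc1, Nptx2, Pltp, Tspan2 and Pdlim3 are 5 mouse genes of unrelated families, followed here in lungs of embryos at embryonic day 12.5 with a knockout of Intu and in wild-type lungs. They were picked by name among the 31078 genes of the count table because their levels were lower in knockout lungs on both sides; all 5 were found by Ensembl ID, and all 5 were among the 9519 genes with enough counts to be tested. The knockout minus wild-type values of these genes are therefore a description of what chose them and carry no test. The choice was for an even difference on both sides; the values of Pdlim3 lay farther apart between sides (log2 difference -1.01 on the left and -1.62 on the right) than those of the other 4 genes, and this gap is given with no test.

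Intu encodes a subunit of the CPLANE complex, which builds primary cilia, the antenna-like organelles through which cells receive Hedgehog signals. RNA was sequenced from 4 groups of 3 libraries, in the order knockout left lung, knockout right lung, wild-type left lung and wild-type right lung. All embryos were on a C57BL/6 background and came from natural matings of parents carrying the Intu knockout allele; whole lungs were dissected, left apart from right. The labels give neither the part of Intu that the allele removes nor whether each library is a different embryo. The p-values therefore describe the variation among these libraries, and part of it may be technical. Those between genotypes over both sides take left and right libraries of the same number as independent, unless summed counts are named.

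In the developing lung, Hedgehog ligand from the epithelium acts on the surrounding mesenchyme, where the airway smooth muscle forms. Smooth muscle cells contract through actin filaments anchored in dense bodies, which contain alpha-actinin. Pdlim3 encodes a PDZ and LIM domain protein that binds alpha-actinin, and Fhdc1 encodes a formin, a protein with an FH2 domain of the kind that shapes actin filaments, which also binds microtubules. Tspan2 encodes a tetraspanin, a protein that crosses the membrane several times and organises receptors and adhesion molecules in it. Nptx2 and Pltp encode secreted proteins: neuronal pentraxin 2 gathers AMPA receptors at excitatory synapses, and phospholipid transfer protein moves phospholipids between lipoprotein particles in plasma.

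The genes lie on 4 chromosomes (GRCm38). Fhdc1 (ENSMUSG00000041842) spans chromosome 3, 84442198 to 84480429, on the minus strand. Tspan2 (ENSMUSG00000027858) spans chromosome 3, 102734529 to 102801513, on the plus strand. Both are on the chromosome of Intu, at 43.7 and 62.0 Mb from it. Nptx2 (ENSMUSG00000059991) spans chromosome 5, 144545902 to 144557478, on the plus strand. Pltp (ENSMUSG00000017754) spans chromosome 2, 164839518 to 164857711, on the minus strand. Pdlim3 (ENSMUSG00000031636) spans chromosome 8, 45885461 to 45919548, on the plus strand. All are protein coding, and counts were summed over all annotated exons of a gene. Fhdc1, Nptx2 and Pdlim3 overlap no other gene of the table. Pltp shares 495 exonic bases with Ctsa on the opposite strand, and Tspan2 shares 88 with the antisense gene Tspan2os. Whether strand was used in counting is not given, so reads from these shared bases cannot be assigned.

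RefSeq gives a promoter window, 250 bases before to 50 after a transcript start, for 4 of the 5 genes, and the windows are shown because the 4 genes were low in the same libraries. The first listed window of each is printed 5′ to 3′ on the gene's own strand, from GRCm38.p6, with E-boxes (CANNTG) in capitals. The windows are chr3:84480390-84480689 for Fhdc1, chr2:164857659-164857958 for Pltp, chr3:102734520-102734819 for Tspan2 and chr8:45885237-45885536 for Pdlim3.
Fhdc1: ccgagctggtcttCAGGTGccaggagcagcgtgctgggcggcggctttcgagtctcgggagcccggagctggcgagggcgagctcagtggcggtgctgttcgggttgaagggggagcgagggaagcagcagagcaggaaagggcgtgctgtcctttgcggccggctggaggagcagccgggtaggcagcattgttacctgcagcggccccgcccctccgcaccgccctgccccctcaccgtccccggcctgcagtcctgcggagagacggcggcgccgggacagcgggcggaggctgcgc
Pltp: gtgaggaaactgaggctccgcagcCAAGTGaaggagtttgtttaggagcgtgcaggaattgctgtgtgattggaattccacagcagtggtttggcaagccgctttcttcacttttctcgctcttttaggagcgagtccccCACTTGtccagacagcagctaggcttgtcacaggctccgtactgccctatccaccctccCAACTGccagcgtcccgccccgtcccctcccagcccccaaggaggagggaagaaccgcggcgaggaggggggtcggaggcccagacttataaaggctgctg
Tspan2: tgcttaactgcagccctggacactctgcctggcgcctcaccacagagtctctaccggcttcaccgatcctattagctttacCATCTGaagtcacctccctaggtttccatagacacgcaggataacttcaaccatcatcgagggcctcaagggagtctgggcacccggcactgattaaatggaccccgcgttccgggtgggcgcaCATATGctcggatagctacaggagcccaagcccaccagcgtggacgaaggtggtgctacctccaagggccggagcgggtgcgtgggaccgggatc
Pdlim3: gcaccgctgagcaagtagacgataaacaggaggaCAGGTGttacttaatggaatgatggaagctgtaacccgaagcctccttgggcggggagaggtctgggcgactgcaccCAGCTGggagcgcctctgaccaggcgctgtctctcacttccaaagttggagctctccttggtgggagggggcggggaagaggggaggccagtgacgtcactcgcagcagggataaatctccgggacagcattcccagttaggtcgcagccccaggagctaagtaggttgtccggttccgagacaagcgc
On both strands of these windows, no GLI core (ACCACCC) and no CArG box was found, and the same held for the second windows of Fhdc1 and Tspan2. Of all 32851 promoter windows, 4.61% hold that GLI core and 1.63% a CArG box. An E-box was found in all 4 printed windows, with 1 in Fhdc1, 3 in Pltp, 2 in Tspan2 and 2 in Pdlim3, against 72.3% of all windows with at least 1. None of these motifs overlapped another. The window of Fhdc1 was 72.3% G and C, those of Pltp, Tspan2 and Pdlim3 59.0%, 59.3% and 59.7%, and the median window 52.7%.

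The libraries held 10290103 to 10753386 counts over the part of the genome analysed here (chromosomes 1 to 7, 10, X and part of 8), and levels are CPM, the count of a gene scaled to the total of that part and by TMM factors. The targeted gene did not separate the labels. Intu had 27.5, 27.1 and 26.2 CPM in knockout left lungs and 28.2, 28.9 and 31.4 in knockout right lungs, against 30.6, 32.5 and 30.5 in wild-type left lungs and 33.2, 34.0 and 28.2 in wild-type right lungs. Knockout and wild-type libraries overlapped, and the log2 difference of Intu over both sides was -0.16 (SE 0.06, adjusted p = 0.162 in edgeR's quasi-likelihood test). Counts were summed over the whole gene, and no part of it was examined apart. Why Intu did not separate the labels was not tested, and genotypes are given as labelled. Xist, the RNA of the inactive X chromosome of female cells, had 107.2 to 985.4 CPM in the 6 knockout libraries and 1271 to 2269 CPM in the 6 wild-type ones, so the genotypes also differed in this marker of sex. Knockout libraries number 2 were nearest to wild type in Xist, with 911.7 CPM in left and 985.4 CPM in right lungs. In the left one, Pltp (70.55 CPM) and Pdlim3 (8.91 CPM) were at their highest of the 6 knockout libraries, while in the right one Fhdc1 (41.3 CPM) and Nptx2 (2.50 CPM) were at their lowest. Tspan2 had 33.5 CPM in the left and 38.9 CPM in the right one, within the range of the other knockout libraries, and the part of sex in the results was not tested.

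Fhdc1, the formin gene, was lower in knockout lungs by nearly the same amount on each side. Its level was 44.0, 43.2 and 45.8 CPM in knockout left lungs and 47.9, 41.3 and 48.7 CPM in knockout right lungs. In wild-type left lungs it was 108.3, 104.0 and 121.3 CPM, and in wild-type right lungs 108.0, 119.2 and 121.6 CPM. The highest knockout library, at 48.7 CPM, stood under the lowest wild-type library, at 104.0 CPM, and left and right libraries of one genotype overlapped. The log2 difference was -1.33 (SE 0.08) in left lungs and -1.34 (SE 0.08) in right lungs, which leaves knockout lungs at 39.7% of the wild-type level over both sides.

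Nptx2 had the largest difference and the fewest counts. It had 3.23, 2.59 and 3.47 CPM in knockout left lungs and 3.22, 2.50 and 4.24 CPM in knockout right lungs. In wild-type left lungs it had 11.2, 8.50 and 13.6 CPM, and in wild-type right lungs 12.3, 10.2 and 12.6 CPM. Every knockout library was under every wild-type one, and the sides overlapped in both genotypes. These levels rest on 26 to 44 counts per knockout library and 90 to 145 per wild-type library, and its log2 difference was -1.84 (SE 0.22) on the left and -1.81 (SE 0.22) on the right. Over both sides the level in knockout lungs was 28.2% of that in wild type.

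Pdlim3 was lower in knockout lungs of both sides, with left and right values farther apart than those of the other genes. It had 5.87, 8.91 and 7.03 CPM in knockout left lungs and 4.98, 6.63 and 6.94 CPM in knockout right lungs. In wild-type left lungs it had 13.6, 12.8 and 17.7 CPM, and in wild-type right lungs 19.0, 20.0 and 18.2 CPM. The genotypes did not overlap, but the gap was narrow on the left, where the highest knockout library had 8.91 CPM and the lowest wild-type library 12.8 CPM. The log2 difference was -1.01 (SE 0.18) in left lungs and -1.62 (SE 0.18) in right lungs. Knockout lungs thus held 49.55% of the wild-type level on the left and 32.5% on the right, and 40.1% over both sides.

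Pltp and Tspan2 were lower by about the same amount as each other and less than the other genes. Pltp had 62.9, 70.55 and 64.2 CPM in knockout left lungs and 65.6, 64.6 and 60.75 CPM in knockout right lungs. It had 101.6, 102.1 and 107.5 CPM in wild-type left lungs and 94.0, 97.6 and 99.2 CPM in wild-type right lungs. Its highest knockout library stood at 70.55 CPM and its lowest wild-type library at 94.0 CPM, and its log2 difference was -0.63 (SE 0.04) over both sides. Ctsa, which shares exonic bases with Pltp and encodes the lysosomal carboxypeptidase cathepsin A, averaged 218.2 ± 8.18 CPM in knockout and 226.1 ± 10.1 CPM in wild-type lungs (SD, n = 6 each). Its log2 difference was -0.05 (SE 0.04, adjusted p = 0.531 in edgeR).

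Tspan2 had 34.1, 33.5 and 32.7 CPM in knockout left lungs and 39.7, 38.9 and 34.8 CPM in knockout right lungs. It had 53.5, 53.9 and 58.4 CPM in wild-type left lungs and 59.2, 59.4 and 56.3 CPM in wild-type right lungs. Again the genotypes did not overlap, and in the knockout the 3 left libraries were also all under the 3 right ones. The log2 difference was -0.72 (SE 0.07) on the left and -0.62 (SE 0.07) on the right, with knockout lungs at 62.6% of wild type over both sides.

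**Figure D1:**
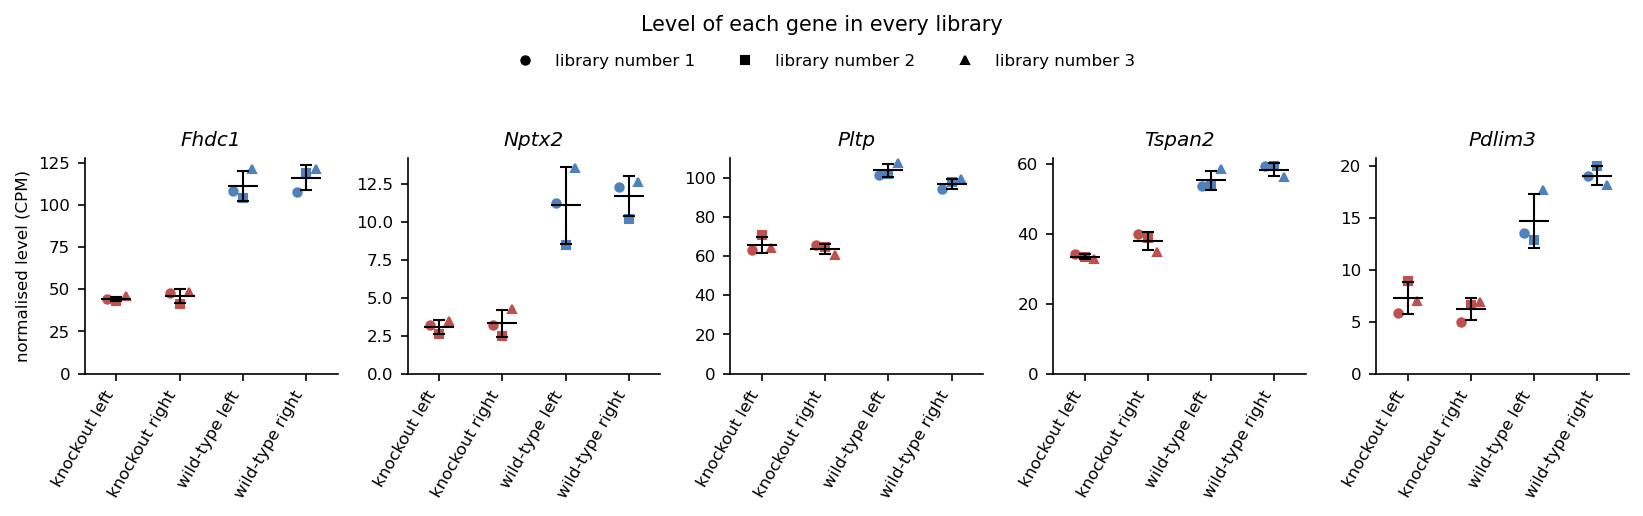
Normalised level (CPM, vertical axes from 0, a separate scale per gene) of each gene in the 12 libraries, with knockout groups in red and wild-type groups in blue; markers give the library number, bars the mean and SD of 3 libraries. For each gene the 6 knockout libraries lie under the 6 wild-type libraries, with the widest relative gap for Fhdc1, between 48.7 and 104.0 CPM.

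Among all tested genes, 252 (2.65%) had every knockout library under every wild-type library. The genes were chosen for this contrast, so their own 5 of 5 adds nothing to it; 131 genes (1.38%) had every knockout library over every wild-type one. In left lungs 0.872% of tested genes were called lower in the knockout and 0.305% higher, and in right lungs 1.18% and 0.336%. Ordered by log2 difference from the most negative of 9519, Nptx2 was number 21, Fhdc1 number 52, Pdlim3 number 56, Tspan2 number 226 and Pltp number 259. The spread within groups was widest for Nptx2 and Pdlim3, the genes with the fewest counts: the SD of log2 CPM among libraries of a group was 0.06 for Pltp, 0.07 for Tspan2, 0.10 for Fhdc1, 0.23 for Pdlim3 and 0.28 for Nptx2. In these whole-lung samples, fewer cells of a type and less RNA per cell cannot be told apart.

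**Figure D2:**
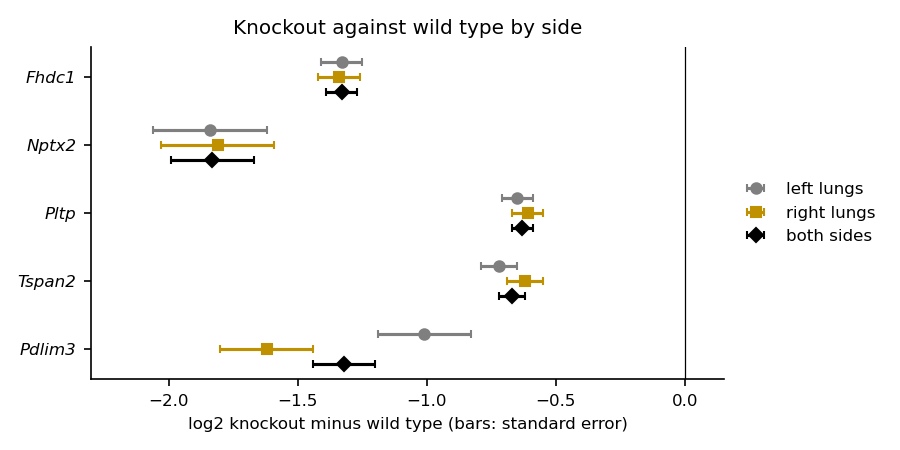
Log2 knockout minus wild type (horizontal axis) for each gene in left lungs, in right lungs and over both sides; bars are standard errors of the edgeR fit of 12 libraries. Left and right values of Fhdc1, Nptx2, Pltp and Tspan2 lie within 0.10 of each other, and those of Pdlim3 at -1.01 and -1.62.

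The left against right comparison is the one in which these genes were not chosen, at least as a mean over genotypes. None of the 5 genes differed between sides in that mean. In edgeR without pairs, 8 of 9519 genes (0.084%) were called at an adjusted p under 0.05, and none of the 5 was among them, with 1 of them (Tspan2) at an unadjusted p under 0.05. With same-numbered left and right libraries of a genotype as blocks, 127 genes (1.33%) were called and again none of the 5, nor was one called by DESeq2. In wild type alone 0.0105% of genes were called, or 0.662% with blocks, and in the knockout alone 0.0%, or 0.452% with blocks; again none of the 5 was called, with Pdlim3 in wild type and Tspan2 in the knockout at an unadjusted p under 0.05. In the mean over genotypes, Tspan2 had the smallest p of the 5, with a left mean of 44.35 CPM and a right mean of 48.06 CPM, and its left library was the lower one in 5 of 6 pairs. Its log2 left minus right was -0.13 (SE 0.05; adjusted p = 0.878 in edgeR), and its adjusted p was 0.309 with the pairs as blocks.

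Pltp leaned the other way. Its left mean was 84.8 CPM and its right mean 80.3 CPM, it was higher on the left in 5 of 6 pairs and its log2 left minus right was 0.07 (SE 0.04, adjusted p = 0.976 in edgeR). Fhdc1, Nptx2 and Pdlim3 stood at -0.06 (SE 0.06), -0.09 (SE 0.16) and -0.07 (SE 0.13), with edgeR adjusted p-values of 0.998 or more. These standard errors leave room for side differences of their own size in either direction, widest for Nptx2.

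Within a genotype the sides of some genes did not overlap. In the knockout this held for Tspan2 and in wild type for Pltp and Pdlim3; over all tested genes it held for 8.18% in the knockout and 8.56% in wild type. Pdlim3 averaged 14.7 CPM in wild-type left lungs and 19.1 CPM in wild-type right lungs, and its left library was the lower one in 3 of 3 wild-type pairs, by 0.48, 0.63 and 0.04 on the log2 scale. The fitted log2 left minus right was -0.37 (SE 0.16, adjusted p = 1 in edgeR) and -0.38 (SE 0.12) with pairs as blocks (adjusted p = 0.223). In the knockout Pdlim3 averaged 7.27 CPM in left and 6.18 CPM in right lungs, and was higher on the left in 3 of 3 pairs, by 0.23, 0.42 and 0.02. In that genotype its log2 left minus right was 0.23 (SE 0.19, adjusted p = 1 in edgeR). Wild-type pair number 3 and knockout pair number 3 thus showed almost no side difference.

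**Figure D3:**
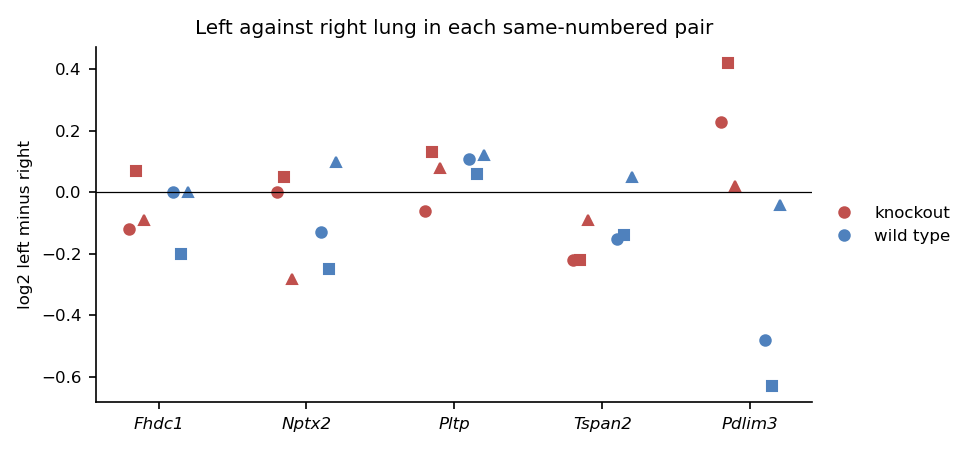
Log2 left minus right (vertical axis) of each gene in the 3 knockout pairs (red) and 3 wild-type pairs (blue) of same-numbered libraries; circles, squares and triangles are numbers 1, 2 and 3. Most values lie within 0.30 of 0, and Pdlim3 is the gene whose knockout pairs are all above 0 and whose wild-type pairs are all below 0.

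The neighbours of the genes were then examined, since position played no part in their choice. Within 500 kb of them, 65 other genes were tested, of which 2 were called lower and 3 higher in knockout lungs over both sides; over all tested genes 3.62% were called lower and 2.08% higher (1.04% and 0.343% with left and right counts summed). All 5 of these lay near Pltp. Around Fhdc1 (7 neighbours), Nptx2 (9), Tspan2 (9) and Pdlim3 (11) none was called by edgeR, with 1, 3, 0 and 2 at an unadjusted p under 0.05. DESeq2 called 2 lower and 4 higher among all 65.

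Fhdc1 lies between Arfip1, which encodes an arfaptin of the Golgi, and Trim2, which encodes a ubiquitin ligase. Arfip1, at -15.7 kb (upstream), averaged 24.1 ± 1.03 CPM in knockout and 27.0 ± 2.45 CPM in wild-type lungs, and its log2 difference was -0.16 (SE 0.06, adjusted p = 0.162 in edgeR). Trim2, 135.3 kb downstream, stood at 0.09 (SE 0.06, adjusted p = 0.412 in edgeR). The nearest tested genes of Nptx2 were Bri3 at -0.02 (SE 0.07) and Trrap at 0.09 (SE 0.06). On the downstream side of Tspan2 it was Sycp1, at 0.76 (SE 0.43). The nearest of Pdlim3 were Sorbs2, which encodes an actin-associated adaptor, at -0.11 (SE 0.09), and 1700029J07Rik at 0.26 (SE 0.15). None of these 7 genes was called.

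Near Pltp, Mmp9, a matrix metalloproteinase gene at -83.1 kb (negative distances are upstream), averaged 0.71 ± 0.27 CPM in knockout and 1.91 ± 0.36 CPM in wild-type lungs. Its log2 difference was -1.49 (SE 0.22, adjusted p = 0.00105 in edgeR and 0.0317 with left and right counts summed). Neurl2, a gene 6.1 kb downstream, fell by 0.56 (SE 0.12, adjusted p = 0.0121 in edgeR; 0.0991 with left and right counts summed), with 4.58 ± 0.54 CPM in knockout and 6.73 ± 0.70 CPM in wild-type lungs. The range of Neurl2 overlaps that of Ctsa on the opposite strand, as does that of Rbpjl with Matn4, described below. Whether strand was used in counting is not given, so the counts of these genes may not be separate. Pcif1, the nearest tested gene upstream, stood at -0.07 (SE 0.04). Farther downstream, between 424.1 and 450.4 kb, Rbpjl, Matn4 and Slpi were higher by 1.19 (SE 0.15), 1.16 (SE 0.08) and 1.78 (SE 0.28). Their edgeR adjusted p-values were 0.000274, 1.15e-06 and 0.00171, or 0.018, 0.00124 and 0.0163 with summed counts. The lower count became 1 without wild-type pair number 3 and 5 without knockout pair number 2, and the higher count 6 without knockout pair number 1.

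**Figure D4:**
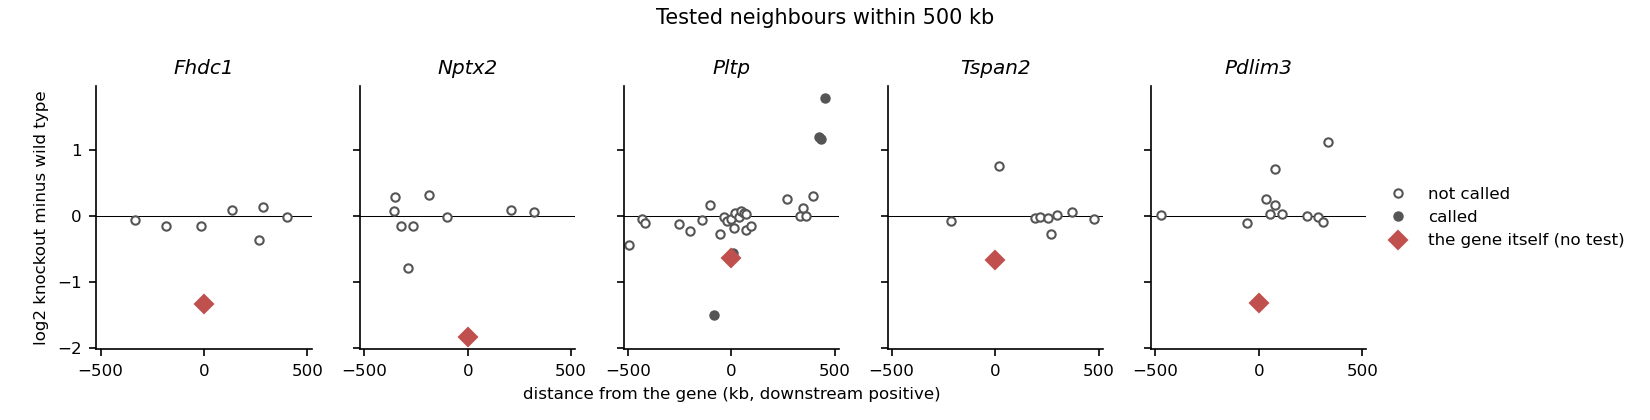
Log2 knockout minus wild type over both sides (vertical axis) of tested genes within 500 kb of each gene, by distance in its direction of transcription (horizontal axis, kb); filled circles were called and open ones were not. The red diamonds are the genes themselves, shown with no test, and filled circles occur near Pltp alone.

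Relatives of the 5 genes are counted against the shares of all tested genes called in knockout lungs, 3.62% lower and 2.08% higher (1.04% and 0.343% with summed counts). Levels between genes of a family are compared per length, as CPM divided by the exon length in kb (RPKM). Of 15 formins listed, 6 were in the part of the genome analysed. Among these Fhdc1 was second in knockout lungs at 7.20 RPKM and the first in wild type at 18.1 ± 1.25 RPKM. In wild type Fmnl2, a formin of the cell edge, had 17.2 ± 0.48 RPKM (SD, n = 6), within their spread. Of the other 5 formins tested 1 was called lower (3.62% of all tested genes), Fmn2, which builds actin filaments in oocytes and neurons. Fmn2 averaged 8.92 ± 1.62 CPM in knockout and 12.2 ± 0.94 CPM in wild-type lungs, a log2 difference of -0.45 (SE 0.10, adjusted p = 0.0207 in edgeR). That call was lost without wild-type left library number 1 or wild-type right library number 1 or 2, without pair number 1 or 2 of either genotype, with pairs as a random block in limma-voom, and with left and right counts summed (adjusted p = 0.143). The median of the 5 was -0.01, against 0.004 for all tested genes.

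Of 8 pentraxins listed, 5 were in the part of the genome analysed. Among these Nptx2 was number 2 in knockout lungs and number 1 in wild type, with 1.265 RPKM in knockout and 4.50 RPKM in wild-type lungs. Ptx3, a soluble pentraxin of innate immunity and the other pentraxin tested, averaged 5.42 ± 3.04 CPM in knockout and 3.35 ± 0.62 CPM in wild-type lungs and stood at 0.69 (SE 0.31, unadjusted p = 0.0449, adjusted p = 0.239 in edgeR). Crp had almost no counts, and Apcs and Mptx1 had none in any library. Of 4 tested genes listed as AMPA receptor subunits and other synaptic partners, of which Tnfaip3 is neither, none was called by edgeR. At an unadjusted p under 0.05 was 1 of them: Gria2, a receptor subunit, at -0.66 (SE 0.27, adjusted p = 0.192 in edgeR).

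Pltp was the most abundant per length of 17 BPI fold genes in both genotypes, at 25.3 RPKM in knockout and 39.2 RPKM in wild-type lungs, far over Lbp, the lipopolysaccharide-binding protein gene, at 3.58 RPKM in knockout and 3.37 RPKM in wild-type lungs. None of the 4 others tested was called by edgeR, with 1 at an unadjusted p under 0.05: Bpifb1, an airway secretory protein gene, at -0.96 (SE 0.37, adjusted p = 0.156 in edgeR). Among 12 tested genes of lipoproteins, sterol efflux and the nuclear receptors that act on Pltp, 0 were called lower and 1 higher. Lpl, lipoprotein lipase, averaged 99.6 ± 3.94 CPM in knockout and 85.5 ± 6.62 CPM in wild-type lungs and rose by 0.22 (SE 0.05, adjusted p = 0.0207 in edgeR). That call was lost without wild-type left library number 3, wild-type right library number 2 or knockout right library number 2, without pair number 2 or 3 of either genotype, and with summed counts (adjusted p = 0.163). The nuclear receptor genes Nr1h2 and Nr1h3 stood at 0.07 (SE 0.06) and -0.11 (SE 0.15), and Abca1, the cholesterol exporter, at -0.09 (SE 0.06).

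Tspan2 was in the middle of the 23 tetraspanins of the table, of 31 listed, number 16 by RPKM in knockout lungs and number 13 in wild type. Of the 22 others tested, 1 was lower and 0 higher, a share near the 3.62% of all tested genes called lower. Tspan12, a co-receptor in Norrin signalling, averaged 34.1 ± 2.61 CPM in knockout and 41.7 ± 2.94 CPM in wild-type lungs and fell by 0.29 (SE 0.05, adjusted p = 0.00531 in edgeR; 0.0726 with summed counts). The number called lower was 2 without wild-type left library number 2 or wild-type right library number 1, 4 without knockout left library number 2, 3 in DESeq2 and 0 with summed counts. The number called higher was 0 or 1 over the alternatives run, and 0 or 1 when a library or pair was left out. Abundant members such as Cd81, at 172.3 RPKM in knockout and 172.9 RPKM in wild-type lungs, stood near 0, and the family's median was -0.05.

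Pdlim3 was the lowest of 3 genes of its list in the table, of 11 listed, at 1.31 RPKM in knockout and 3.28 RPKM in wild-type lungs. Its relative Pdlim5, whose protein links alpha-actinin to kinases, stood at -0.21 (SE 0.08, adjusted p = 0.164 in edgeR). The alpha-actinin gene Actn4 averaged 812.0 ± 10.83 CPM in knockout and 816.2 ± 38.8 CPM in wild-type lungs and stood at -0.01 (SE 0.04). Neither was called by edgeR, and Pdlim5 was at an unadjusted p of 0.0231.

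Other lists were also made with earlier results of these data known. Of 16 smooth muscle genes listed, 8 were in the table, and 7 of 7 tested were called lower, against 3.62% of all tested genes. With summed counts 5 were, against 1.04%. The median of the 7 tested genes was -0.91. Actg2, Synpo2, Lmod1 and Myl9 were at -1.99, -2.04, -0.92 and -0.91 (edgeR adjusted p of 2.08e-05 or less, and of 0.00593 or less with summed counts). The Hedgehog targets Gli1 and Hhip were called lower, at -1.10 (SE 0.05) and -0.85 (SE 0.08). Their edgeR adjusted p-values were 1.54e-08 and 3.81e-05, or 7.84e-05 and 0.00595 with summed counts. Of 3 tested FHL genes, which encode LIM-only proteins, Fhl2 fell by 0.69 (SE 0.08). Its adjusted p was 0.000238 in edgeR and 0.00707 with summed counts. Fhl1, by contrast, stood at 0.25 (adjusted p = 0.0825 in edgeR). The number of FHL genes called higher was 0 or 1 over the alternatives run, and 0 or 1 when a library or pair was left out.

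**Figure D5:**
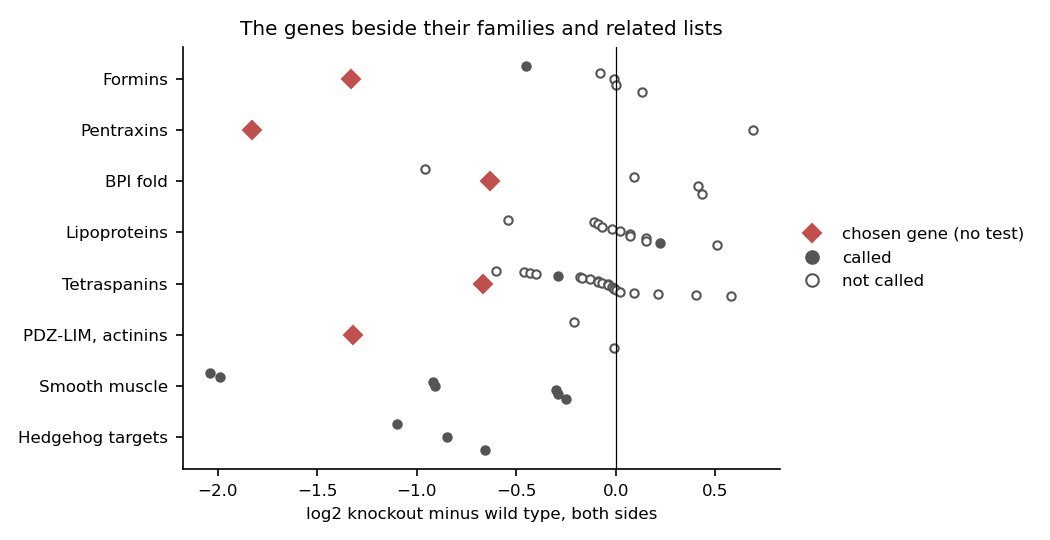
Log2 knockout minus wild type over both sides (horizontal axis) of tested genes of each family or list (rows); filled circles were called in edgeR, open circles were not, and red diamonds are the 5 chosen genes, shown with no test. The diamonds were chosen for being low, so their place in a row is fixed by the choice; in the BPI fold row Bpifb1, not called, lies at -0.96, to the left of Pltp at -0.63. The smooth muscle and Hedgehog rows reach down to -2.04 and -1.10.

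The summed markers of 4 of the 9 cell types did not overlap between genotypes. No such share was taken for sums of other genes. Of single tested genes, 2.65% had every knockout library under every wild-type one and 1.38% over. Called lower were 8 of 11 tested genes of autonomic neurons and 6 of 9 of macrophages, against 3.62% of all tested genes. With left and right counts summed it was 5 and 2, against 1.04%. These lists were made with earlier results of these data known. Summed over the measured markers, 8 smooth muscle genes came to 1186 to 1453 CPM in knockout and 1813 to 2067 CPM in wild-type libraries. The 12 markers of autonomic neurons summed to 28.7 to 37.1 CPM in knockout and 41.45 to 75.2 CPM in wild-type libraries, the 9 of macrophages to 162.9 to 209.6 CPM in knockout and 229.9 to 265.0 CPM in wild-type libraries, and the 5 of cardiac muscle to 21.5 to 40.45 CPM in knockout and 54.2 to 84.87 CPM in wild-type libraries. The cardiac sum was mostly Actc1, a sarcomeric actin, at 17.7 ± 6.21 CPM in knockout and 57.8 ± 9.48 CPM in wild-type lungs. Its log2 difference was -1.70 (adjusted p = 7.03e-05 in edgeR and 0.0113 with summed counts). The myosin light chain gene Myl2 was called higher, at 2.51 ± 1.34 CPM in knockout and 0.40 ± 0.43 CPM in wild-type lungs (log2 difference 2.60, adjusted p = 0.0143 in edgeR; 0.124 with summed counts), and Tnni3 stood at 0.48 and Tnnt2 at -0.12, so these markers did not move one way. The sums of 6 endothelial genes (718.7 to 955.8 CPM in knockout and 771.7 to 833.9 CPM in wild type), 7 Schwann cell precursor genes (132.9 to 146.1 CPM in knockout and 133.8 to 158.5 CPM in wild type), 3 mesothelial genes (234.4 to 313.7 CPM in knockout and 261.9 to 338.7 CPM in wild type), 11 skeletal muscle genes (14.1 to 23.8 CPM in knockout and 14.8 to 18.9 CPM in wild type) and 4 lung epithelial genes (238.6 to 296.5 CPM in knockout and 244.2 to 261.6 CPM in wild type) overlapped between genotypes. No marker in these 9 lists was at 0 in all libraries. Erbb3 (120.1 CPM in knockout, 126.6 CPM in wild type) made up most of the Schwann sum, and Cald1 (917.1 and 1087 CPM) most of the smooth muscle sum. Within sums that overlapped, Pax7 was called higher, at 1.14 CPM in knockout and 0.09 CPM in wild type. Its log2 difference was 3.42 (adjusted p = 0.00163 in edgeR and 0.034 with summed counts). Elf3 (0.54) and Sox18 (0.21) were called higher and Upk3b (-0.32) lower, but not with summed counts. The part of these cell types in the levels of the 5 genes was not tested.

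The genes whose profiles were most like each of the 5 were found by the root mean square difference between log2 CPM profiles over the 12 libraries, each centred on its own mean, among 9070 genes. The measure includes the knockout difference itself, so it is given as a description of these libraries, with no test. Nearest to Fhdc1 was Gli1, the transcription factor of Hedgehog signalling, at 0.16, where the median gene was at 0.68. Gli1 averaged 170.1 ± 13.1 CPM in knockout and 363.4 ± 19.6 CPM in wild-type lungs (SD, n = 6 each). Next came Slc24a3, a sodium-calcium exchanger gene, at 0.21, and Scnn1b, a sodium channel subunit gene, at 0.22. Scnn1b was rare, at 0.45 ± 0.12 CPM in knockout and 1.58 ± 0.37 CPM in wild-type lungs. Its fitted log2 difference was -1.78 (SE 0.26), against -1.33 for Fhdc1. The profiles used log2 CPM with a prior count of 2, which narrows the differences of rare genes.

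Nearest to Nptx2 was Actg2, the enteric smooth muscle actin, at 0.21, with 56.5 ± 3.34 CPM in knockout and 225.4 ± 23.1 CPM in wild-type lungs. Tacr1, the substance P receptor, followed at 0.27 and Synpo2, an actin-bundling protein of muscle, at 0.28. Nearest to Pdlim3 were Gli1 at 0.23 and Fhdc1 itself at 0.25, while Pdlim3 was number 7 for Fhdc1. Fhdc1 and Nptx2 were 0.29 apart, and Fhdc1 was number 4 for Nptx2.

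Pltp and Tspan2 were 0.12 from each other. Nearest to Tspan2 was the chemokine gene Cxcl12 at 0.06, with 158.2 ± 8.69 CPM in knockout and 243.0 ± 14.1 CPM in wild-type lungs, followed by Pltp and by Sdk1, a cell adhesion gene, both at 0.12. Nearest to Pltp were Camk2d, a calcium-dependent kinase gene, at 0.09, Fhl2 at 0.10 and Rflna, a filamin-binding protein gene, at 0.10. For these 2 genes the median distances were 0.37 and 0.35. Nptx2 was 0.63 from Pltp and 0.61 from Tspan2, where the median gene was at 0.93 from Nptx2. By rank, Pltp was number 102 and Tspan2 number 83 for Nptx2. In the other direction, Nptx2 was number 8598 for Pltp and number 8417 for Tspan2. The measure is not scaled, so it grows with the gap between knockout differences. On the log2 scale these were -1.83 for Nptx2, -0.63 for Pltp and -0.67 for Tspan2. Each of these genes had every knockout library under every wild-type one.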

How the data were processed

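The deposited table holds unnormalised whole-number counts for each gene. The submitters' processing notes name FastQC, HISAT2, featureCounts and the GRCm38 build; tool versions and the strand setting were not given in the sources used here. In the table used here the last line, on chromosome 8, was incomplete and was left out. Symbols were matched by ID for 30915 genes (99.5%); the rest of the genome was not analysed here.

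Genes were filtered with filterByExpr (minimum count 10, minimum total 15) and scaled by TMM (factors 0.992 to 1.01). All 12 libraries entered 1 fit of 4 groups with 8 residual degrees of freedom in edgeR 4.0.16 (R 4.3.3; quasi-likelihood test, Benjamini-Hochberg over 9519 genes, threshold 0.05). Standard errors come from that test. Over both sides it took same-numbered left and right libraries of a genotype as independent, although they were alike. The fit with left and right counts summed took each such pair as 1 unit. DESeq2 1.42.0 and limma 3.58.1 were alternatives, and the procedure was tested on simulated counts. No library was a repeat of another of its group: between replicates of a group, chi-square divided by its degrees of freedom was 4.34 to 12.8. Libraries of different groups, such as left and right ones, were not compared in this way.

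Deviations from group means correlated at 0.253 to 0.486 in the 6 same-numbered left and right pairs of a genotype, at -0.393 to -0.00284 for other numbers, and at -0.121 to -0.0416 for the same number across genotypes, so numbers were taken to pair sides within a genotype. The genes and all lists were chosen with earlier results of these data known. Other genes were named by rule: of each related list the called genes (at most 4, by smallest p), and in a list with no call its gene of smallest p; nearest and called neighbours; and the 3 most similar profiles (mean of at least 1 CPM). Genes outside the rule, namely Fmnl2, Lbp, Nr1h2, Nr1h3, Abca1, Cd81, Actn4, Fhl1, Crp, Apcs, Mptx1, Tnfaip3, Actc1, Myl2, Tnni3, Tnnt2, Erbb3, Cald1, Pax7, Elf3, Sox18, Upk3b and Xist, were chosen after their values were seen. Promoter sequences are RefSeq's; Nptx2 is not printed. Some results that the naming rule covers are not reported here.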

Additional observations from a re-analysis of the deposited data

Results flagged for a closer look

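Pdlim3 stood apart because its side difference ran one way in every wild-type pair and the other way in every knockout pair. Its log2 left minus right was 0.23 (SE 0.19) in the knockout and -0.37 (SE 0.16) in wild type, and the first less the second was 0.61 (SE 0.25). In pair number 3 of each genotype the side difference was 0.02 in the knockout and -0.04 in wild type. The difference between genotypes was not tested, since falling evenly on both sides was part of how the gene was chosen.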

How the results depend on the processing

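The knockout minus wild-type values of the 5 genes over both sides moved by no more than the SD within groups under the alternatives run. In left lungs alone, Pltp ranged from -0.71 to -0.62 when a library or pair was left out. Over the fits that left out a library or a pair, Fhdc1 ranged from -1.37 to -1.28, Nptx2 from -1.98 to -1.69, Pltp from -0.66 to -0.60, Tspan2 from -0.70 to -0.64 and Pdlim3 from -1.43 to -1.18 on the log2 scale. With the label number as a replicate block across genotypes, they stood at -1.33, -1.83, -0.63, -0.68 and -1.32. No side difference of the 5 genes was called in any fit, with or without the pairs as a block. The small left minus right values changed sign in some fits that left out libraries: over them Nptx2 ranged from -0.17 to 0.02 as a mean over genotypes, from -0.25 to 0.08 in wild type and from -0.27 to 0.11 in the knockout, Fhdc1 from -0.13 to 0.0008 in wild type, and Pltp from -0.005 to 0.11 in the knockout; the cause was not tested. Of 63 tested genes in the related lists, 13 were called lower (9 to 16 over all alternatives) and 1 higher, against 3.62% and 2.08% of all tested genes; 11 of the 13 were in the smooth muscle, Hedgehog and FHL lists. The number higher was 5 without the low-count filter, 3 in DESeq2, 0 with left and right counts summed, and 0 to 3 when a library or pair was left out. Of the 65 neighbours, 2 were called lower and 3 higher. The number lower was 1 with summed counts, 1 with pairs as a random block in limma-voom and 1 to 5 when a library or pair was left out. The number higher was 8 without the filter, 0 within 250 kb and 3 to 6 when a library or pair was left out. Nptx2 and Pdlim3 had the fewest counts, and how much of their wider standard errors is counting error was not tested.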
